A study of Homo sapiens with 6 samples.

Results

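Expression of 10 cytokine genes, chosen by name, was examined in irradiated HK-2 cells: the interleukin 6 family members IL6, IL11 and LIF, the interleukins IL1A, IL1B, IL18 and IL32, and the colony stimulating factors CSF1, CSF2 and CSF3. Each was listed in 1 copy, and together they were 10 of the 38648 genes and gene copies listed for every library. HK-2 is an immortalized human cell line derived from the proximal tubule epithelium. All cells had received a lentivirus, either a negative control (IR+NC-LV, n = 3) or one carrying PRDM16, a zinc finger transcriptional regulator (IR+PR-LV, n = 3). Per the study's methods, lentiviral cells were selected with puromycin. Both groups were given a single X-ray dose of 8 Gy and harvested 7 days later, so the data hold levels in irradiated cells and the contrast between viruses, with no unirradiated cells to compare them with. The labels call the 3 samples of a group different cells without saying whether they were separately infected or irradiated, so p-values measure only the spread between these samples.

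Cells that stop dividing for good after DNA damage release cytokines, chemokines and proteases, together called the senescence-associated secretory phenotype, or SASP. IL-6, IL-11 and LIF bind different receptor chains that share the signalling subunit gp130, encoded by IL6ST, and signal through JAK kinases and STAT3. IL-1α, IL-1β and IL-18 are made without a secretion signal. IL-1β and IL-18 need cleavage, classically by caspase-1 in an inflammasome, whereas IL-1α is already active as a precursor. The colony stimulating factors M-CSF (CSF1), GM-CSF (CSF2) and G-CSF (CSF3) act mainly on macrophages, granulocytes and their precursors. In the kidney, tubular cells are a known source of M-CSF and IL-18, and IL-11 has been studied in tubular injury. Only transcripts were measured here, and neither cleavage nor secretion can be read from them.

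The libraries held between 13407074 and 28540041 counts, and a count of 0 allows up to 0.105 to 0.224 CPM (counts scaled to library size), taking 3 counts as the limit of counting error. The targeted gene, PRDM16, had 2, 0 and 1 counts in IR+NC-LV and 14, 10 and 8 in IR+PR-LV. Scaled to depth, this was a ratio of 8.74 (exact 95% interval 2.73 to 44.6, counting error only), with an exact permutation p = 0.1, 2-sided, the smallest that 3 against 3 libraries can give. Its transcript level was thus low in both groups. The paper examined PRDM16 in HK-2 cells with either virus by western blot, and these counts do not measure protein. Epithelial keratins were abundant (KRT8 at 811 and 857 TPM in the means of IR+NC-LV and IR+PR-LV), as was PAX8, a renal epithelial transcription factor (136 and 139 TPM). The epithelial marker CDH1, encoding E-cadherin, was scarce by contrast, with 71 counts in all (0.249 to 0.581 TPM over the 6 libraries). Several markers of the mature proximal tubule were nearly absent: LRP2, encoding megalin, had 3 counts in all, and ANPEP had 19.

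Most of these cytokine genes were among the more abundant transcripts of irradiated HK-2 cells. Levels are given as deposited TPM (a count per gene length scaled to the same sum in each library), so that genes can be compared. CSF2 was the highest, at 584 ± 59.3 TPM (SD, n = 6), rank 238 of the 28831 genes with any count. IL32 followed at 236 ± 24.3 and IL6 at 149 ± 16.0 TPM. LIF (99.3 ± 3.05), IL11 (97.0 ± 4.84) and CSF1 (80.3 ± 6.57) formed a middle group, and IL18 reached 29.5 ± 2.29 TPM. IL1A (5.57 ± 0.887) and CSF3 (4.93 ± 1.01) were low, and IL1B, at 0.747 ± 0.315 TPM, was the lowest. The means thus ran from the 99.2 percentile of genes with any count (CSF2) to the 46.3 percentile (IL1B).

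**Figure D1:**
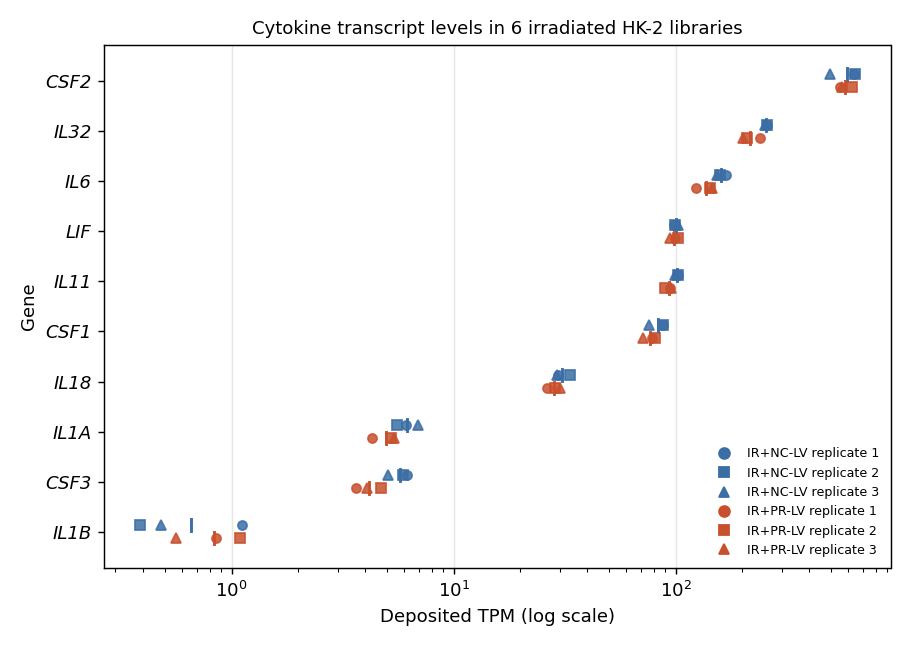
Deposited TPM (log axis) of the 10 cytokine genes, ordered by mean, in each IR+NC-LV (blue) and IR+PR-LV (orange) library; markers give the replicate and short bars the group mean. CSF2 lies between 494 and 641 TPM and IL1B between 0.386 and 1.11 TPM. The spread within each gene is small beside the distance from CSF2 to IL1B.

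This order was almost the same in every library. Of the 9 pairs of neighbours, 7 had separate ranges over the 6 libraries, CSF2 over IL32 by a ratio of means of 2.47 and CSF3 over IL1B by 6.61. LIF and IL11 did not differ beyond their spread, since LIF was above IL11 in 3 of 6 libraries. IL1A and CSF3 overlapped as well, with IL1A above in 4 of 6. Ordering by length-scaled values with TMM normalization instead (trimmed mean of M values, the depth scaling used for the tests) kept all 10 positions. CSF2 alone gave between 40.5% and 48.4% of the summed TPM of the 10 genes, which ranged from 1219 to 1395 in IR+NC-LV and from 1211 to 1289 in IR+PR-LV.

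The regions upstream of the highest and lowest of these genes, and of IL6 and IL32, are shown because their levels span the whole range. RefSeq windows (GRCh38.p14, 250 bases before to 50 after a transcript start) were found for 6 of the 10 genes: IL6, IL11, IL1A, IL1B, IL32 and CSF2. They were searched on both strands for the TATA box (TATAAA), the AP-1 site (TGANTCA), the C/EBP site (TTGCNNAA) and the NF-kB site, by name. Capitals mark matches. The windows are chr5:132073539-132073838 (CSF2, plus strand), chr16:3065153-3065452 (IL32, plus strand), chr7:22726950-22727249 (IL6, plus strand) and chr2:112836730-112837029 (IL1B, minus strand), each printed 5′ to 3′ along the gene.
CSF2: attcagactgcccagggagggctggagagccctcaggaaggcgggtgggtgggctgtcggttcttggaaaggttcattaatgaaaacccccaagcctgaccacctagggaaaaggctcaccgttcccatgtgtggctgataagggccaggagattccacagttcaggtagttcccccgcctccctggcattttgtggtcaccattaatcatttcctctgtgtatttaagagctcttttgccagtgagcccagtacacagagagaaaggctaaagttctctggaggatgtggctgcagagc
IL32: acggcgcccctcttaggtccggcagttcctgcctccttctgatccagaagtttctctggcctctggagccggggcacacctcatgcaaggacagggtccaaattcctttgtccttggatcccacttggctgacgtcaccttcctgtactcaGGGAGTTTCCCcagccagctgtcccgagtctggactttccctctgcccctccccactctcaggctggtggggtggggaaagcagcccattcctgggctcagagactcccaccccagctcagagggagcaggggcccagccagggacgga
IL6: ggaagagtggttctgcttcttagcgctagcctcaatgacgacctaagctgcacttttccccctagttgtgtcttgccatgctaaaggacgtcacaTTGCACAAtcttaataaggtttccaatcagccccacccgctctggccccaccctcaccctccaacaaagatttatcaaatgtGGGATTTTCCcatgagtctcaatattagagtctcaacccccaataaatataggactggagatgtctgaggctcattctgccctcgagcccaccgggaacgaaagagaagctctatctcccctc
IL1B: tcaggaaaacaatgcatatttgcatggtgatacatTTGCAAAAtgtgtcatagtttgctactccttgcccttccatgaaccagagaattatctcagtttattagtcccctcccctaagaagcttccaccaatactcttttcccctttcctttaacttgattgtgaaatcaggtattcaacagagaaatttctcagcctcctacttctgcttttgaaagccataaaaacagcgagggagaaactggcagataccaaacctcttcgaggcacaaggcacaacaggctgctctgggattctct

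The IL6 window held a C/EBP match at positions -155 to -148 from the start and an NF-kB match at -73 to -64. The IL32 window held an NF-kB match on each strand, at -99 to -90 and -98 to -89, which overlap. IL1B held a C/EBP match at -215 to -208, and the CSF2 window held no match to any of these letter patterns. Among the windows not printed, IL11 had an AP-1 match at -96 to -90, and IL1A had AP-1 matches at -12 to -6 and 38 to 44 and a TATA box at -239 to -234. A second start of IL1A gave a window with the same AP-1 sites, and that of IL32 had no match. Of all 35116 windows, 5.91% held an NF-kB match, 10.5% a C/EBP match, 7.71% an AP-1 match and 11.5% a TATA box. A match is a run of letters and not evidence of binding. The lack of a match does not mean that a site is absent, since sites with other letters were not searched for.

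Between the viruses, no cytokine gene passed the threshold. Of the 10 genes, 9 passed the filter on low counts and 0 had an adjusted p under 0.05 (edgeR quasi-likelihood test, Benjamini-Hochberg over 15340 genes, of which 10, or 0.0652%, passed), while 1, IL32, had an unadjusted p under 0.05, against 10.5% of all genes tested. DESeq2 gave the same counts, 0 and 1. The fitted log2 fold changes of IR+PR-LV over IR+NC-LV ran from -0.42 (CSF3) to 0.02 (LIF), with 8 of 9 under 0 and a median of -0.09. Over all genes tested the median was 0.0044, and 48.9% were under 0. In bulk RNA, fewer cells making a transcript and less transcript per cell cannot be told apart.

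**Figure D2:**
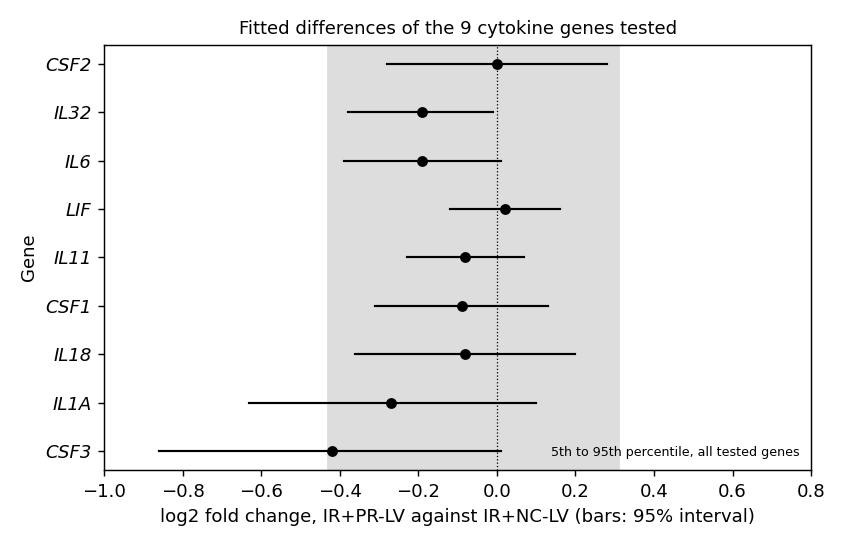
Log2 fold change (IR+PR-LV over IR+NC-LV, edgeR) of the 9 cytokine genes tested, ordered by level, with 95% intervals as bars; the grey band spans the 5th to 95th percentile of all tested genes, -0.43 to 0.31. All points lie inside the band, and only the interval of IL32 leaves out 0.

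Among the gp130 cytokines, IL6, the central inflammatory member, stood at 169, 159 and 154 TPM in IR+NC-LV and 123, 143 and 146 TPM in IR+PR-LV. On this scale all 3 IR+PR-LV libraries were below the IR+NC-LV libraries, but on TMM-normalized CPM the groups overlapped (160, 152 and 135 against 117, 138 and 137). The log2 fold change was -0.19 ± 0.09 (SE; 95% interval -0.39 to 0.01, edgeR adjusted p = 0.487). The counts behind it were large, between 1876 and 3852 per library. IL6 lies at chr7:22725889-22732002 (hg38, plus strand), and 13.8% of its 3061 exon bases overlap the antisense gene IL6-AS1, which had 16 to 30 counts per library.

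IL11, a gp130 cytokine studied in fibrosis, varied little: 102, 102 and 99.5 TPM in IR+NC-LV and 94.6, 89.3 and 95.2 TPM in IR+PR-LV. The TPM groups did not overlap, the CPM groups did, and the log2 fold change was -0.08 ± 0.07 (SE; 95% interval -0.23 to 0.07, edgeR adjusted p = 0.715). LIF, which supports stem cell renewal and the acute phase response, was at 98.1, 99.4 and 103 TPM in IR+NC-LV and 99.4, 102 and 94.2 TPM in IR+PR-LV. Its groups overlapped, and its log2 fold change of 0.02 ± 0.06 (SE; edgeR adjusted p = 0.940) had an interval of -0.12 to 0.16, or folds of 0.918 to 1.12. The sign turned to -0.02 when libraries were scaled by total count alone. LIF lies at chr22:30240453-30257487 (minus strand), where 4.87% of its exon bases overlap LIF-AS1 and LIF-AS2. These antisense genes had 4 to 15 and 9 to 38 counts per library.

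In the IL-1 family, IL1A, encoding the alarmin IL-1α, was at 6.08, 5.55 and 6.92 TPM in IR+NC-LV and 4.27, 5.20 and 5.39 TPM in IR+PR-LV. On CPM it was at 3.93, 3.66 and 4.17 in IR+NC-LV and 2.80, 3.43 and 3.48 in IR+PR-LV. Of the 9 chosen cytokine genes tested, only IL1A had every IR+PR-LV library below every IR+NC-LV library on CPM. Among all genes tested, 9.54% did so. On TPM this held for 5 of 9 (IL6, IL11, IL1A, IL32 and CSF3), where 11.2% of all genes did. The genes were chosen with earlier results of these data known, and no test was made over them. The counts of IL1A were 66, 77 and 58 against 47, 96 and 64, and its log2 fold change of -0.27 ± 0.16 (SE; 95% interval -0.63 to 0.10, edgeR adjusted p = 0.602) did not pass the test.

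IL1B, a neighbour of IL1A on chromosome 2 (chr2:112829751-112836843, minus strand, against chr2:112773925-112784493), was nearly silent. It had 9, 4 and 3 counts in IR+NC-LV and 7, 15 and 5 in IR+PR-LV, or 1.11, 0.386 and 0.479 against 0.852, 1.09 and 0.564 TPM. The groups overlapped. The summed counts, 16 and 27, gave a depth-scaled ratio of 1.38 (exact 95% interval 0.718 to 2.75, counting error only) with an exact permutation p = 0.600, 2-sided, so no difference was detectable at this depth. IL18, which drives interferon-γ production by lymphocytes, stood higher, at 29.5, 33.3 and 29.1 against 26.3, 28.7 and 30.2 TPM. Its groups overlapped, with a log2 fold change of -0.08 ± 0.12 (SE; 95% interval -0.36 to 0.20, edgeR adjusted p = 0.859). It became 0.02 without IR+NC-LV replicate 2, the library with the most IL18.

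IL32, a proinflammatory cytokine outside these families and without a mouse ortholog, was at 257, 257 and 252 TPM in IR+NC-LV and 240, 210 and 202 TPM in IR+PR-LV. The IR+NC-LV libraries were close together (255 ± 2.87, SD), and the IR+PR-LV libraries were wider apart (217 ± 19.8). On CPM the groups overlapped, since IR+NC-LV replicate 3 (93.1) was below IR+PR-LV replicate 1 (96.2). IL32 had the smallest p of the set. Its log2 fold change was -0.19 ± 0.08 (SE), a fold of 0.874 with an interval of 0.769 to 0.993, unadjusted p = 0.0411 and edgeR adjusted p = 0.451.

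Of the colony stimulating factors, CSF2 was at 638, 641 and 494 TPM in IR+NC-LV and 548, 623 and 562 TPM in IR+PR-LV. The IR+PR-LV libraries all lay between the lowest and highest IR+NC-LV library. The log2 fold change was -0.00089 ± 0.12 (SE, edgeR adjusted p = 0.999), and its 95% interval of -0.28 to 0.28 covers folds of 0.823 to 1.21. Its sign changed with several of the settings tried. CSF1 was at 87.7, 87.9 and 75.6 against 77.9, 80.9 and 71.6 TPM, with overlapping groups and a log2 fold change of -0.09 ± 0.10 (SE; 95% interval -0.31 to 0.13, edgeR adjusted p = 0.790). It was -0.19 without IR+NC-LV replicate 3 (edgeR unadjusted p = 0.0399, adjusted p = 0.521), -0.05 without replicate 1 of that group, and -0.03 without its replicate 2 or without IR+PR-LV replicate 3. In both genes IR+NC-LV replicate 3 was the lowest of its group.

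CSF3, the neutrophil growth factor, had the largest negative value among the 9 genes tested. It was at 6.20, 5.93 and 5.05 TPM in IR+NC-LV and 3.62, 4.72 and 4.09 TPM in IR+PR-LV, which did not overlap. On CPM they did (3.22, 3.13 and 2.45 against 1.91, 2.50 and 2.12). With only 54, 66 and 34 counts against 32, 70 and 39, the interval was the widest of the 9 genes tested, a fold of 0.745 (0.552 to 1.01), for a log2 fold change of -0.42 ± 0.19 (SE, edgeR adjusted p = 0.482). The abundant CSF2 and the scarce CSF3 thus had means of 591 and 578 TPM, and of 5.72 and 4.14 TPM, in IR+NC-LV and IR+PR-LV.

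The receptors for these cytokines were expressed unevenly. Of 6 gp130 family receptor genes, 5 were tested, 3 with a log2 fold change above 0 and 2 below, and 0 passed the threshold. The shared subunit IL6ST was at 213, 208 and 239 TPM in IR+NC-LV and 179, 201 and 209 TPM in IR+PR-LV (log2 fold change -0.12 ± 0.07, SE, edgeR adjusted p = 0.575). OSMR, the oncostatin M receptor chain, was also abundant (86.9 to 98.6 TPM over the 6 libraries). LIFR was lower (12.8 to 14.6 TPM). The chains that bind IL-6 and IL-11 themselves were scarce, IL6R at 4.66 to 8.82 TPM and IL11RA at 2.36 to 4.12 TPM. CNTFR had 55 counts in all and was not tested.

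For the IL-1 family, 6 of 8 receptor genes were tested, 3 above and 3 below 0 and 0 past the threshold. The signalling receptor IL1R1 (8.07 to 9.18 TPM) and its partner IL1RAP (14.1 to 18.5 TPM) overlapped between groups. IL1RL2, the IL-36 receptor, was at 5.67 to 10.6 TPM and the inhibitory SIGIRR at 7.92 to 9.56 TPM. The decoy receptor IL1R2 was at 0.185 to 0.292 TPM. The IL-18 receptor was thinly covered: IL18R1 was at 1.17 to 1.38 TPM, and IL18RAP had 7 counts in all, too few to be tested. IL1RL1, the IL-33 receptor, had 9 counts. Among inhibitors, IL18BP, which binds IL-18, was at 5.91 to 8.36 TPM (1 tested of 4, log2 fold change 0.18 ± 0.14, SE, edgeR adjusted p = 0.685), while IL1RN, the IL-1 receptor antagonist, had 6 counts in all.

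The colony stimulating factor receptors, normally markers of myeloid cells, were low. CSF1R was the only 1 of the 4 that passed the filter, at 5.02, 4.58 and 6.08 TPM in IR+NC-LV and 4.59, 4.32 and 3.99 TPM in IR+PR-LV (log2 fold change -0.23 ± 0.14, SE, edgeR adjusted p = 0.611). CSF2RB had 35 counts and CSF3R 2 counts over the 6 libraries. CSF2RA had 6 counts in its copy with the most, and reads shared by its near-identical copies may be missing from that value. For CSF2, the most abundant cytokine of the set, the receptor chain CSF2RB was thus at the edge of detection. The level of CSF2RA could not be judged.

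**Figure D3:**
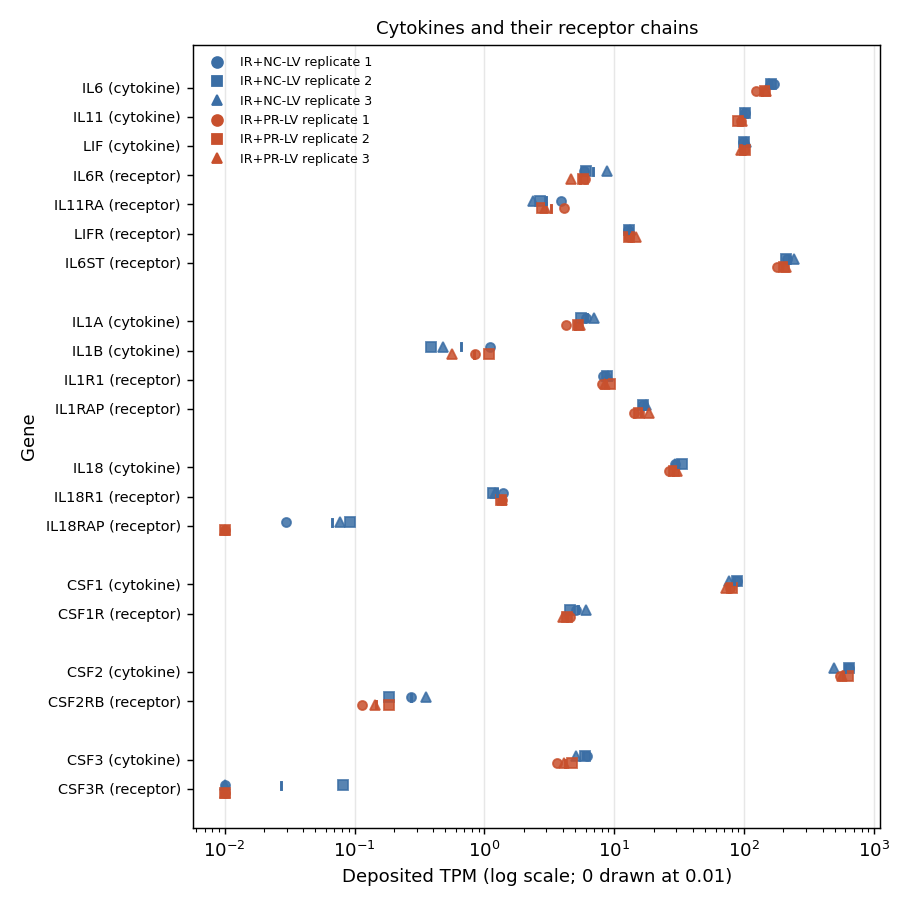
Deposited TPM (log axis, values of 0 drawn at 0.01) of cytokine genes and their receptor chains in each library, grouped by pathway; bars give the group mean. IL6ST, at 179 to 239 TPM, lies above IL6 (123 to 169 TPM), whereas CSF2RB and CSF3R lie far below CSF2 and CSF3.

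Counting receptors, signalling genes and other cytokines, 122 genes of these pathways were listed and 77 tested. None passed the threshold in either direction (edgeR, smallest adjusted p = 0.107), and 10 of 77 had an unadjusted p under 0.05, where 10.5% of all genes tested did. Of these 10, 8 had a negative log2 fold change, but the matching share among all genes at that p was not counted. The lists were chosen with earlier results of these data known, and no test was made over them. Of 14 JAK-STAT genes, 4 had a log2 fold change above 0 and 10 below. SOCS2, a feedback inhibitor, had the smallest p, at 5.50, 4.68 and 6.78 TPM in IR+NC-LV and 3.33, 3.19 and 3.35 TPM in IR+PR-LV (log2 fold change -0.73 ± 0.14, SE, edgeR adjusted p = 0.107). PTPN11, the phosphatase SHP2, came next (0.14, adjusted p = 0.416). STAT3 was at 109, 101 and 113 against 96.8, 93.9 and 99.0 TPM, not overlapping, with a log2 fold change of -0.12 ± 0.06 (SE, edgeR adjusted p = 0.502). Every IR+PR-LV library was below every IR+NC-LV library on TPM in 11.2% of all genes tested.

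Of the 14 genes for inflammasomes and the release of IL-1 and IL-18, 10 were tested, 7 above 0 and 3 below, the smallest adjusted p being 0.698 (edgeR). The calpains CAPN2 (log2 fold change 0.07) and CAPN1 (0.13), proteases of which some cleave pro-IL-1α, had the smallest p-values. CASP1, the protease that matures IL-1β and IL-18, had 51 counts in all, and the sensor NLRP3 had 10. CASP4 was at 9.86 to 12.2 TPM and the adaptor PYCARD at 8.62 to 13.1 TPM. Of 12 genes of IL-1 receptor signalling, 6 lay on each side of 0. The kinases IRAK1 (0.26, edgeR adjusted p = 0.405) and IRAK2 (-0.15, adjusted p = 0.499) led by p and had opposite signs.

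Regulators of cytokine mRNA and transcription did not pass the threshold either. Among 12 genes that control cytokine mRNA stability, 5 had a log2 fold change above 0 and 7 below, led by ZFP36L2, which promotes decay of AU-rich mRNAs (-0.31, edgeR adjusted p = 0.331), and ELAVL1, which encodes the stabilizing protein HuR (0.10, adjusted p = 0.561). Of 5 genes for C/EBP factors and IκBζ, which act at the IL6 promoter, 2 lay above 0 and 3 below. CEBPG (-0.22, edgeR adjusted p = 0.383) and CEBPB (-0.19, adjusted p = 0.415) had the smallest p-values. CEBPB stood at 87.2, 86.0 and 104 TPM in IR+NC-LV and 82.2, 75.8 and 77.5 TPM in IR+PR-LV, without overlap. Such a separation downward on TPM was seen in 11.2% of all genes tested. NFKBIZ, encoding IκBζ, was abundant at 362 to 424 TPM and overlapped.

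**Figure D4:**
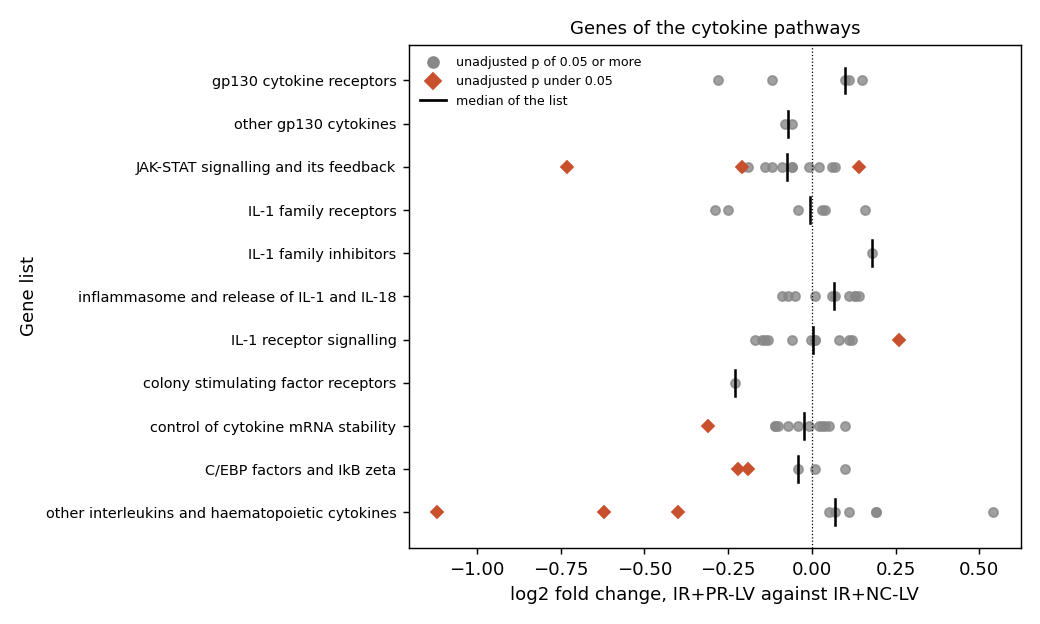
Log2 fold change (IR+PR-LV over IR+NC-LV, edgeR) of each tested gene by pathway list; orange diamonds mark an unadjusted p under 0.05 and black bars the median of the list. The 10 diamonds reach from -1.12 to 0.26, and none passed the threshold after adjustment.

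Transcripts of cells other than epithelium were checked because several of these cytokines act on, or come from, leukocytes. Of 11 leukocyte markers, 9 had any count, 4 were tested and 0 passed the threshold. MS4A1 was at 0, and PTPRC, the pan-leukocyte CD45, had 10 counts in all. All 4 tested lay below 0, led by ITGAM (2.09, 1.70 and 4.95 TPM in IR+NC-LV against 0.357, 0.614 and 0.368 TPM, edgeR adjusted p = 0.0755) and LCP1 (log2 fold change -1.46, adjusted p = 0.106). The summed TPM of the list was 194 to 209 in IR+NC-LV and 161 to 176 in IR+PR-LV, most of it CD68, a lysosomal protein that other cells also make. Fibroblast markers summed to 130 to 136 and 106 to 150 TPM, most of it LUM (92.7 to 140 TPM over the 6 libraries). COL1A1 was at 9.09 to 13.1 TPM and PDGFRB at 0.371 to 1.19 TPM. PDGFRA, COL1A2 and DCN had 19, 7 and 22 counts in all. Endothelial markers summed to 0.366 to 0.587 and 0.319 to 0.454 TPM. The part of these transcripts in the cytokine values was not tested.

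The gene whose profile was most like that of a cytokine over the 6 libraries, by Pearson r of log2 CPM, was ZEB1 for IL6 (r = 0.990), BANK1 for IL11 (0.992), PABPC4-AS1 for LIF (0.985), DNAH14 for IL1A (0.999), LOC100506476 for IL18 (0.983), CLCN7 for IL32 (0.991), ARPC4 for CSF1 (0.993) and FAM83D for CSF3 (0.995). With 6 points that share libraries and depth scaling, such values are common: between 50 and 334 of the 15339 other genes had r over 0.9 with a given cytokine.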

How the data were processed

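Poly(A)-selected RNA of 3 IR+NC-LV and 3 IR+PR-LV samples of HK-2 cells was sequenced. The submitters' processing notes name CASAVA, featureCounts 2.0.1, DESeq2 1.16.1 and hg38; the aligner and whether counting used the strand are not given in the sources used here. The authors deposited raw counts per gene. The deposited TPM values are these counts per gene length, scaled to the same sum in each library, and the deposited FPKM values were used nowhere here.

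Groups were compared with edgeR 4.0.16 in R 4.3.3 on the counts: filterByExpr (minimum count 10, minimum total 15), TMM normalization, glmQLFit and glmQLFTest, Benjamini-Hochberg adjustment over 15340 genes and a threshold of 0.05. A positive fold change means more transcript with the PRDM16 virus. IL1B and PRDM16, under the filter, were given exact binomial intervals on summed counts and exact permutation tests over libraries. These binomial intervals, and the limits set for a count of 0, cover counting error only. PCR copies of a molecule were not marked and count as separate reads. The intervals of the edgeR fits include the spread between libraries. Genes with few counts have wider intervals. Alternatives were RLE and other scalings, DESeq2 1.42.0, limma 3.58.1 on log2(TPM + 1), other filters and thresholds, a replicate block and each library left out. The procedure was tested on simulated counts. Promoter windows were RefSeq's for GRCh38.p14.

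The members, gene lists and tests were chosen with earlier results of these data known. Named genes were all 10 members, every receptor, the 2 genes with the smallest p of each list and the most similar gene of each member; further genes of the lists were named after their values were seen. The most similar gene of CSF2 and 1 leukocyte marker are not reported here.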

Additional observations from a re-analysis of the deposited data

How the results depend on the processing

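The 10 genes past the threshold over the whole table became 166 with DESeq2, 342 with no filter beyond 1 count, 3 with the replicate number as a block, 1 with limma on log2(TPM + 1) and 58 at an adjusted p of 0.1. Leaving out 1 library gave 1 without replicate 1 of IR+NC-LV and 1 without replicate 3 of IR+PR-LV, the lowest counts, and 28, the highest, when replicate 2 of IR+NC-LV was dropped (16 without its replicate 3). No cytokine gene passed in any setting tried. The sign turned for 3 genes: LIF (-0.02 by total count only, with limma on log2(TPM + 1) and without IR+PR-LV replicate 2), IL18 (0.02 without IR+NC-LV replicate 2), and CSF2, at 0.0027 with RLE normalization, 0.01 with DESeq2, with no filter and with the replicate block, and between -0.14 and 0.09 with 1 library left out (0.06 without IR+NC-LV replicate 1, 0.09 without replicate 2, 0.03 without IR+PR-LV replicate 1 or 3). The cause was not tested. With 1 library left out, CSF3 ranged from -0.55 to -0.34, IL1A from -0.32 to -0.18, IL32 from -0.27 to -0.14, IL6 from -0.25 to -0.12, CSF1 from -0.19 to -0.03 and IL11 from -0.13 to -0.05. Deviations of equally numbered libraries from their group means correlated at -0.00884, 0.0514 and 0.0706. Replicates 2 and 3 of IR+NC-LV correlated best with their own number, and replicate 1 with replicate 2. With 3 libraries per group, these values cannot settle whether the replicate numbers pair the libraries. The counts of IL1B and the few counts of IL1A and CSF3 limit what could be detected.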

Other observations

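Of 32 further interleukins and haematopoietic cytokines, 25 had any count and 9 were tested, 6 with a log2 fold change above 0 and 3 below, and none passed the threshold (edgeR). The 3 below 0 had the smallest p-values of the list. IL15, a growth factor for natural killer cells, was at 20.7, 20.6 and 24.2 TPM in IR+NC-LV and 15.4, 14.8 and 17.9 TPM in IR+PR-LV (log2 fold change -0.40 ± 0.10, SE, edgeR adjusted p = 0.224). IL23A, the p19 subunit of IL-23, was at 13.6, 12.6 and 15.7 against 10.9, 7.13 and 8.50 TPM (-0.62 ± 0.18, edgeR adjusted p = 0.313). IL34, a further ligand of the CSF1 receptor, was at 1.77, 1.18 and 2.61 against 1.08, 0.445 and 0.999 TPM (-1.12 ± 0.39, edgeR adjusted p = 0.389). In each of these 3 genes every IR+PR-LV library was below every IR+NC-LV library on TPM, as in 11.2% of all genes tested. The same held on CPM, as in 9.54% of all genes tested. KITLG, encoding stem cell factor, was the most abundant of the list, at 170 to 208 TPM.

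Of 6 further gp130 cytokines, 2 were tested, EBI3 at 56.0 to 78.6 TPM and CLCF1 at 19.9 to 25.3 TPM, both with log2 fold changes under 0 (-0.06 and -0.08, edgeR adjusted p = 0.910 and 0.855). OSM had 17 counts in all and CTF1 none. Of 5 further IL-1 family cytokines none passed the filter on low counts. IL36G had the most, 51 counts, at 1.28, 1.38 and 2.07 TPM in IR+NC-LV and 0.948, 0.752 and 1.17 TPM in IR+PR-LV, and IL33 had 10. GSDMD, encoding the pore protein gasdermin D, named after its values were seen, was at 11.0, 9.10 and 3.55 TPM in IR+NC-LV and 9.42, 10.5 and 2.33 TPM in IR+PR-LV, with replicate 3 the lowest of both groups.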
